A study of Mus musculus with 57 samples.

Results

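Fluoxetine was compared with vehicle in the prefrontal cortex of wild-type (WT) mice. The comparison used 20 of the 57 labelled samples, chosen by genotype and drug in the sample labels: 5 fluoxetine females, 5 fluoxetine males, 5 vehicle females and 5 vehicle males, with the sexes weighted equally. All mice were C57BL/6J, and the WT mice belong to a study of the Shank3dC allele, in which heterozygous (HT) mice and lithium were also examined. Drug or vehicle reached the pups through the mother's milk for 3 weeks, from postnatal day 3 to 24, and tissue was taken on postnatal day 25. The labels name neither dams nor litters, so the dose each pup received is not given and the p-values treat pups that may have shared a dam as independent. Beyond replicate numbers nothing says that libraries came from separate animals, so the p-values measure only the spread between libraries, which may be in part technical. For the tests of genes that spread was estimated over all 56 libraries in 12 groups, lithium and HT libraries included.

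Fluoxetine blocks the serotonin transporter, which returns released serotonin to the nerve terminal. In the weeks before weaning the mouse cortex is still forming synapses, and oligodendrocytes are wrapping axons in myelin, a membrane rich in cholesterol. Cells adjust cholesterol synthesis through SREBP transcription factors, which bind sterol regulatory elements, and adjust the chaperones of the endoplasmic reticulum (ER) through the unfolded protein response, which acts on ER stress elements. Neuronal firing induces a further set of genes, from transcription factors such as Egr3 to synaptic proteins such as Nptx2.

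Between 23839573 and 32623595 reads were recovered per compared library. All 8 cortical excitatory neuron markers were present in every compared library, the lowest value of any of them being 224.7 normalised counts (Emx1), and none of the 8 passed the test. Their median log2 change was -0.23 in females, where all 8 were lower under fluoxetine, and 0.05 in males, where 5 were higher. Genes typical of the olfactory bulb, which borders the prefrontal cortex, varied widely: Cdhr1 lay between 91.72 and 6577 normalised counts and Eomes, a marker of bulb output neurons, between 0 and 1317. Of the 12 bulb markers 0 passed the test, and their median log2 change was -0.05 in females and -1.67 in males. An olfactory level, the mean over 5 such genes relative to all libraries, exceeded 2 in 5 libraries (fluoxetine females 1, 2 and 4, vehicle female 2 and vehicle male 1). Its mean was 2.28 ± 2.09 (SD, n = 5) in fluoxetine females against 1.20 ± 0.77 in vehicle females (exact permutation p = 0.294, two-sided). In males it was 0.584 ± 0.677 against 1.14 ± 0.77 (exact permutation p = 0.278). The slope of each library's values with the GC content of the genes also varied. In females it was 0.0942 ± 0.0637 log2 units per 10 points of GC under fluoxetine and -0.0644 ± 0.0788 under vehicle (exact permutation p = 0.0159, adjusted over 4 tests 0.0635). In males the order was the opposite, -0.0450 against 0.0647 (exact permutation p = 0.103). The smallest p this design allows is 0.00794. Their part in the results was not tested, and counts are therefore also given with the GC and length trend removed and without the 5 libraries.

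**Figure D1:**
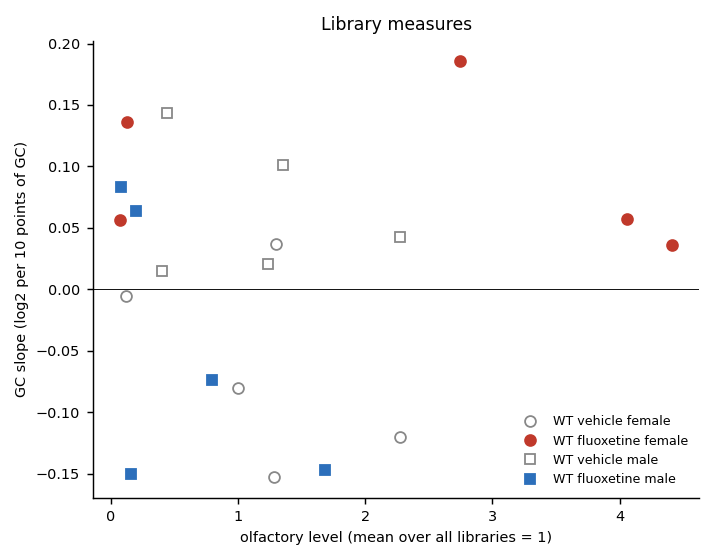
Olfactory level (x axis, mean over all libraries set to 1) against GC slope (y axis, log2 per 10 points of GC content) in the 20 compared libraries, 1 point each, filled for fluoxetine and open for vehicle. The 3 points of highest olfactory level are fluoxetine females, and the fluoxetine females lie above 0 on the y axis.

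With the sexes averaged, 933 of 18026 tested genes (5.18%) differed between fluoxetine and vehicle by limma at an adjusted p below 0.05: 575 were higher (3.19%) and 358 lower (1.99%) under fluoxetine. An unadjusted p under 0.05 was reached by 3541 genes (19.6%). Among the 933 genes, 10 of 26 markers of myelinating oligodendrocytes and 13 of 29 genes of cholesterol synthesis and sterol regulation were lower. Higher among the 933 were 5 of 20 ER chaperone and unfolded protein response genes. So were 2 of 25 immediate early genes, Egr3 among them, and 2 of 24 activity-induced synaptic and secreted effectors, Nptx2 among them. The count of called genes was 427 with only the compared groups fitted. It was 476 with the GC and length trend removed and 865 without the 5 libraries of high olfactory level. It was 462 without fluoxetine female 2 and 570 without vehicle female 3. In 198 of the higher genes (1.1% of those tested) and 171 of the lower genes (0.949%) the call also held with the olfactory level as a covariate, with the GC and length correction and in edgeR.

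Sequences around the elements that regulate these pathways are shown for 3 genes that changed, because ER chaperones and sterol genes are classically controlled through them. They are from RefSeq promoter windows (GRCm38.p6), 250 bases before to 50 after the start, read 5′ to 3′ on the gene's strand, with the matched element in capitals and 40 bases on either side. Hspa5 (chr2:34771985-34772083, plus strand) and Calr (chr8:84847035-84847133, minus strand) hold the ER stress element, CCAAT and CCACG with any 9 bases between them, in Calr on the opposite strand. Hmgcs1 (chr13:119690174-119690262, plus strand) holds TCACCCCAC, a shortened sterol regulatory element.
Hspa5: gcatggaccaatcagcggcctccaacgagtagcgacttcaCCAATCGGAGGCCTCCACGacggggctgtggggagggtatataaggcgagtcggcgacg
Calr: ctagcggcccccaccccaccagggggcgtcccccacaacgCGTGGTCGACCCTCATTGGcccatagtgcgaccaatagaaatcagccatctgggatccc
Hmgcs1: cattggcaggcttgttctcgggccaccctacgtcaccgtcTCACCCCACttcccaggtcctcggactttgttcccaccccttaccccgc

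Searched on both strands, the ER stress element was found in the windows of 0.137% of 27025 genes and in 7 of the 17 listed ER genes with a window (Hspa5, Hsp90b1, Calr, Canx, Pdia6, Dnajc3 and Creld2), 2 of which were called. TCACCCCAC occurred in 0.614% of windows and in 1 of 20 listed sterol genes, Hmgcs1, and the longer element of the LDL receptor gene, which has an A before it, in 0.0999% of windows and in 0 of the 20. Among 22 listed immediate early genes with a window, the CArG box of the Fos type, found in 0.0777% of windows, matched 0. Egr3, Hyou1 and Sqle had no window and were not searched. TGACGTCA, found in 2.03%, matched 3 (Btg2, Maff and Dusp1), and TGACGT, which lies within it and was found in 8.37%, matched 10. All 6 motifs were chosen after the expression results were known, and a match describes the letters only.

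Among activity-dependent genes, Egr3, Nptx2 and Sorcs3 rose with the sexes averaged. Egr3, a zinc finger transcription factor induced by neuronal firing (chr14:70077203-70082614), stood at 3588, 3129, 3516, 2837 and 3334 normalised counts in the vehicle females and at 3062, 5233, 6278, 4286 and 5446 in the fluoxetine females. In vehicle males it was 3492, 3310, 2652, 3034 and 2839, and in fluoxetine males 5576, 5041, 6186, 6849 and 3552. The male groups did not overlap, and among females fluoxetine library 1 lay within the vehicle range. The averaged log2 change was 0.67 ± 0.11 (SE, limma adjusted p = 0.000332). Nptx2, a secreted pentraxin that gathers AMPA receptors, rose by 0.57 ± 0.10 (adjusted p = 0.000404, limma), from a mean of 1340 ± 154 to 1923 ± 251 in females and from 1143 ± 301 to 1717 ± 266 in males (SD, n = 5 each). Sorcs3, a sorting receptor of the postsynaptic density, rose by 0.42 ± 0.08. The calls of Egr3, Nptx2 and Sorcs3 held in all 33 alternative settings.

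Most other genes of the activity lists did not pass the test. Of 25 immediate early genes 2 were higher, Egr3 and Maff (0.62 ± 0.19), against 3.19% of all tested genes. The median change of the 25 was 0.12, against -0.01 over all tested genes. The list's median was 0.45 in females and -0.29 in males, and without the 5 libraries of high olfactory level it was -0.15 averaged. The call of Maff ended in 3 settings and without any of 12 single libraries. Of 24 activity-induced synaptic and secreted effectors 2 were higher, Nptx2 and Sorcs3, with a median of 0.11. Among neurotrophins, growth factors and their receptors 3 of 22 were higher: Vegfa (0.26 ± 0.06), Igf1r (0.19 ± 0.04) and Ntrk3 (0.26 ± 0.06). The calls of Igf1r and Ntrk3 ended with the GC and length correction.

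Several ER chaperones rose. Of 20 listed genes of the ER chaperones and unfolded protein response 5 were higher and 0 lower, against 3.19% and 1.99% of all tested genes. The list's median was 0.12. Hspa5, the master chaperone BiP, was 6903, 6849, 5856, 6387 and 6688 normalised counts in vehicle females and 6055, 8255, 8558, 7746 and 8068 in fluoxetine females. In vehicle males it was 6348, 6023, 5040, 5365 and 5760, and in fluoxetine males 7748, 8094, 7806, 7969 and 7320. The male groups were separate, and fluoxetine female 1 again lay among the vehicle females. Its log2 change was 0.34 ± 0.08 (limma adjusted p = 0.00856). Pdia4, a disulfide isomerase, rose by 0.31 ± 0.08, Hyou1, a chaperone of the Hsp70 family, by 0.26 ± 0.06, and Calr, a calcium-binding lectin chaperone, by 0.21 ± 0.05. These 4 calls held in every setting run. Sdf2l1 (0.35 ± 0.11, adjusted p = 0.0429, limma), named after its values were seen, lost its call without any of 13 single libraries. Without the 5 libraries of high olfactory level 8 members were higher, where 865 of all tested genes were called in either direction. Without fluoxetine female 1 alone 9 members were higher.

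**Figure D2:**
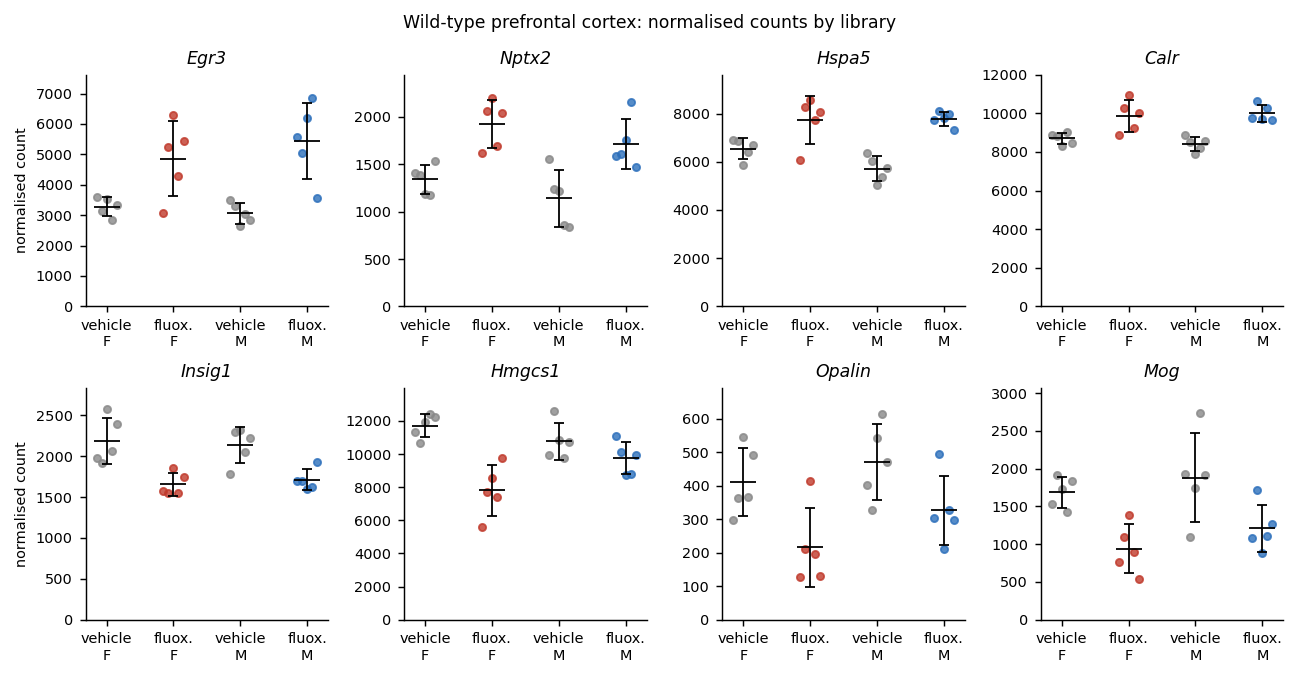
Normalised counts (y axis, from 0) of 8 genes in the vehicle (grey) and fluoxetine (coloured) libraries of WT females (F) and males (M), with mean and SD, n = 5. Egr3, Nptx2, Hspa5 and Calr are higher and Insig1, Hmgcs1, Opalin and Mog lower under fluoxetine with the sexes averaged.

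Many genes of cholesterol synthesis and sterol regulation fell: 13 of 29 were lower and 1, the sterol exporter Abcg1 (0.20 ± 0.05), was higher. The list's median was -0.23, -0.31 in females and -0.11 in males. Within females 13 members were lower and 2 higher, and within males 0 were called, against 12.1% and 1.03% of all tested genes. With the sexes averaged 1.99% of all tested genes were lower. The averaged count of lower members was 8 without fluoxetine male 3 and also without vehicle female 3. The call of Abcg1, named after its values were seen, ended with the GC and length correction and without the 5 libraries of high olfactory level. Insig1, which retains SREBP in the ER and is itself an SREBP target, was 1982, 1922, 2574, 2066 and 2394 normalised counts in vehicle females and 1576, 1550, 1852, 1554 and 1751 in fluoxetine females. In vehicle males it was 1783, 2295, 2320, 2051 and 2223, and in fluoxetine males 1701, 1703, 1600, 1625 and 1928. The female groups did not overlap, the male groups did. Its log2 change was -0.36 ± 0.06 (limma adjusted p = 0.00043).

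Hmgcs1, which makes HMG-CoA for the mevalonate pathway, changed by -0.38 ± 0.07. It fell from 11718 ± 707 to 7805 ± 1533 normalised counts (SD, n = 5) in females and stood at 10779 ± 1124 and 9745 ± 978 under vehicle and fluoxetine in males. Sqle, the squalene epoxidase, changed by -0.35 ± 0.06, and Nsdhl, which removes a sterol methyl group, by -0.29 ± 0.06. The calls of Insig1, Hmgcs1, Sqle and Nsdhl held in every setting run. Some members differed between the sexes: the change of Idi1, the isopentenyl diphosphate isomerase, was -0.72 ± 0.12 in females and -0.08 ± 0.12 in males, a difference of 0.65 ± 0.17 (limma adjusted p = 0.0178), and that of Msmo1, a sterol oxidase, -0.77 ± 0.13 and -0.03 ± 0.13, a difference of 0.74 ± 0.18 (adjusted p = 0.0127, limma). Neither difference kept its call in all of the olfactory, GC and edgeR alternatives. Their calls in females ended without the 5 libraries of high olfactory level (Idi1 adjusted p = 0.0593, Msmo1 0.134), and 8 of the 29 members were then lower with the sexes averaged.

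Oligodendrocyte markers were among the larger falls. Of 26 markers of myelinating oligodendrocytes 10 were lower and 0 higher, against 1.99% and 3.19% of all tested genes. Within females 8 were lower and within males 0, against 6.48% and 0.394% of all tested genes. The list's median was -0.51, -0.48 in females and -0.51 in males. In bulk tissue fewer cells of a type and less RNA per cell cannot be told apart. Of 14 markers of oligodendrocyte progenitors 0 passed the test, with a median of -0.10. The 15 largest falls were taken from genes with a mean of at least 50 whose call was kept in the olfactory, GC and edgeR alternatives, so that Htr2c, at -0.61, is not among them. They held 7 markers of the list. Among the 15 were Ppp1r14a (-0.90 ± 0.25), Opalin (-0.79 ± 0.21), Mog (-0.76 ± 0.20), Fa2h (-0.74 ± 0.22), Tspan2 (-0.72 ± 0.14), Ugt8a (-0.69 ± 0.17), Mbp (-0.65 ± 0.20), Tmem88b (-0.64 ± 0.18), Evi2a (-0.62 ± 0.12), Gpr37 (-0.56 ± 0.14), Gpr62 (-0.56 ± 0.15) and Pllp (-0.55 ± 0.12). Prr5l (-0.59 ± 0.15) and B3gnt9 (-0.52 ± 0.12) were also among them. The call of Mbp was lost in 3 settings and on leaving out any 1 of 15 libraries, that of Fa2h on leaving out any 1 of 10, and those of Ppp1r14a and Tmem88b any 1 of 4.

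Mog, a glycoprotein of the outer myelin surface (chr17:37010743-37023398), was 1533, 1916, 1729, 1427 and 1833 normalised counts in vehicle females and 769, 1100, 1390, 892 and 543 in fluoxetine females. In vehicle males it was 1927, 1099, 1743, 2734 and 1911, and in fluoxetine males 1078, 1712, 886, 1114 and 1269. The females were separate and the males overlapped, vehicle male 2 being low and fluoxetine male 2 high. Tspan2, a tetraspanin of oligodendrocytes, changed by -1.07 ± 0.20 in females and -0.37 ± 0.20 in males.

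The calls of Tspan2, Pllp and Evi2a held in every setting run. Without the 5 libraries of high olfactory level 1 marker of the list was called, while the change of Mog stayed close in size, at -0.74 (limma adjusted p = 0.075). Leaving out single libraries gave 3 to 13 lower members: 3 without fluoxetine male 4 or vehicle male 4, 5 without fluoxetine female 5 or vehicle male 5, and 6 without fluoxetine male 3 or vehicle female 4. Among 22 microglial markers 2 were lower, against 1.99% of all tested genes, and 1 of them was P2ry13 (-0.38 ± 0.09), a purine receptor.

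**Figure D3:**
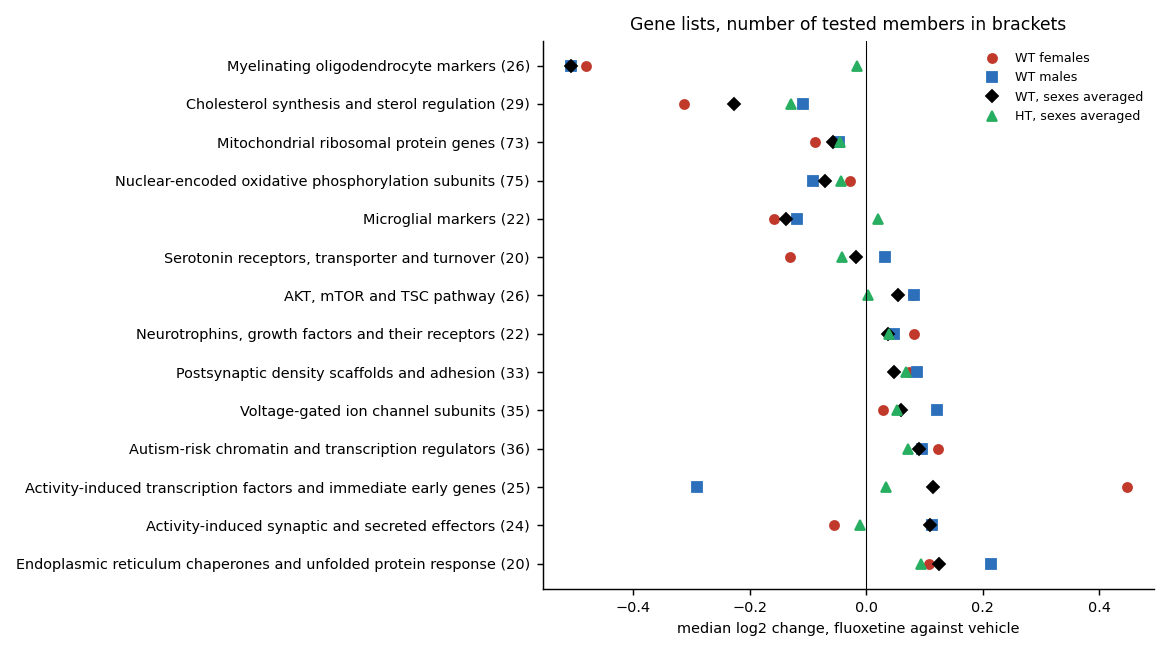
Median log2 change (x axis) over the tested members of 14 gene lists (y axis, number of tested members in brackets) in WT females, WT males, WT with the sexes averaged and HT with the sexes averaged. The oligodendrocyte list is near -0.5 in both WT sexes and near 0 in HT, and the immediate early genes lie at 0.45 in females and -0.29 in males.

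Of 20 tested genes of the serotonin system 2 were lower and 0 higher, against 1.99% and 3.19% of all tested genes. Maoa, which oxidises serotonin and noradrenaline, fell by 0.20 on the log2 scale (SE 0.05, limma adjusted p = 0.0202), and the receptor Htr2c changed by -0.61 ± 0.19 (adjusted p = 0.0488, limma). In fluoxetine females Htr2c was 822, 684, 1339, 363 and 918 normalised counts, against 1108 to 1588 in vehicle females. Those ranges overlap through fluoxetine female 3. The call of Htr2c was lost in 7 alternative settings, edgeR and the GC and length correction among them, and without any of 13 single libraries. The call of Maoa ended when only the compared groups were fitted and without fluoxetine female 2.

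The other 18 serotonin genes, which did not pass the test, had log2 changes between -0.63 and 0.29. Those of receptors were Htr1a -0.24, Htr1b 0.08, Htr1d -0.63, Htr1f 0.20, Htr2a -0.06, Htr3a -0.03, Htr4 0.17, Htr5a -0.04, Htr5b 0.19, Htr6 0.29 and Htr7 0.07. Htr2a, the main cortical excitatory serotonin receptor, had changes of -0.43 ± 0.15 in females and 0.30 ± 0.15 in males, which differed (limma adjusted p = 0.0316), a call not kept in all of the olfactory, GC and edgeR alternatives. Those of enzymes, transporters and associated proteins included Tph2 0.08, Ddc -0.13, Maob -0.08, Slc18a2 -0.04 and S100a10 0.06. Tph2 and Slc18a2, which mark the serotonin neurons of the brainstem, were low, at medians of 21.03 and 28.69 normalised counts. The transporter gene Slc6a4 was not analysed here. Shank3 was 6910 ± 713 and 7379 ± 2087 in vehicle and fluoxetine females and 8002 ± 420 and 7840 ± 1101 in males, with a log2 change of 0.01 ± 0.08.

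Synaptic, channel and chromatin genes gave smaller changes, and fewer of them were called with the GC and length correction. Of 33 postsynaptic density scaffolds 6 were higher, among them Shank1 (0.27 ± 0.08), Synpo (0.26 ± 0.08) and Lrrc7 (0.24 ± 0.07). These calls were lost on leaving out any 1 of 12, 10 and 14 libraries, and the list's count was 1 without fluoxetine female 2, 3 or 5 or vehicle male 4 or 5. Of 35 voltage-gated channel subunits 6 were higher and 1 lower, with Cacna1e (0.26 ± 0.06), Cacna1i (0.24 ± 0.05) and Cacna1g (0.22 ± 0.05) among the higher. With the correction 0 members of either list were higher, and with only the compared groups fitted 0 and 3. Over all tested genes 232 were higher with the correction and 286 with only the compared groups fitted, against 575 (3.19%) in the main setting. Without fluoxetine female 2 there were 3 higher channel genes. Of 26 genes of the AKT, mTOR and TSC pathway 4 were higher, Rptor (0.20 ± 0.05), Tsc2 (0.19 ± 0.04), Mtor (0.18 ± 0.05) and Tsc1 (0.15 ± 0.04), and 1 lower, and with that correction 0 were called. Without fluoxetine female 2 there was 1 higher. Chromatin and transcription regulators linked to autism had 7 of 36 higher, among them Ash1l (0.25 ± 0.05), Crebbp (0.24 ± 0.04), Ep300 (0.24 ± 0.05) and Zmynd8 (0.19 ± 0.04), and 2 were higher with the correction.

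Some nuclear genes of mitochondrial proteins were lower. Of 73 mitochondrial ribosomal protein genes 6 were lower, among them Mrps18c (-0.28 ± 0.07), Mrpl40 (-0.22 ± 0.06), Mrpl11 (-0.22 ± 0.05) and Mrpl3 (-0.13 ± 0.04), against 1.99% of all tested genes. The call of Mrpl3 was lost on leaving out any 1 of 13 libraries. Of 75 nuclear-encoded oxidative phosphorylation subunits 5 were lower, among them Uqcrc2 (-0.18 ± 0.05), Ndufv2 (-0.17 ± 0.05), Uqcrfs1 (-0.16 ± 0.04) and Atp5f1 (-0.15 ± 0.04). Of 13 mitochondrially encoded genes 0 were called. With the GC and length correction, under which 244 of 18026 genes were lower, 4 ribosomal and 0 oxidative phosphorylation genes were called, and without the 5 libraries of high olfactory level 1 and 0. Without fluoxetine female 2 the counts were 2 and 1, and without vehicle female 3 they were 3 and 2.

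The 15 largest rises, taken by the same rule as the falls and so without Maff, included Egr3 and Nptx2. Among the others Depp1, a FOXO target, rose by 1.09 ± 0.31, Dnase1l2, a deoxyribonuclease, by 0.64 ± 0.14, Serinc2 by 0.62 ± 0.17, Aspg by 0.61 ± 0.13, Plekhg4 by 0.61 ± 0.12, Zfp366 by 0.56 ± 0.13 and Ahdc1 by 0.53 ± 0.08. Ahdc1, a DNA-binding protein, did not overlap between the drugs in either sex. Zfp189 rose by 0.52 ± 0.13, the imprinted gene Peg10 by 0.49 ± 0.13, the kinase Pim1 by 0.49 ± 0.12, Acrbp by 0.48 ± 0.12, Tmc4 by 0.47 ± 0.09 and Vasn by 0.46 ± 0.11. Calls of Depp1, Pim1 and Acrbp ended without the 5 libraries of high olfactory level, and those of Serinc2, Vasn and Peg10 with only the compared groups fitted.

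Within females 2189 genes were called (12.1%), 1021 higher (5.66%) and 1168 lower (6.48%), and within males 185 (1.03%), 114 higher (0.632%) and 71 lower (0.394%). Unadjusted p-values under 0.05 numbered 4858 (26.9%) in females and 2764 (15.3%) in males. Both counts depend on the libraries and the setting. Without the 5 of high olfactory level there were 197 in females, where 2 fluoxetine and 4 vehicle libraries remain, and 365 in males. With the GC and length correction there were 518 and 73, and with the olfactory level as a covariate 2809 and 698. With only the 4 compared groups in the fit 13 genes were called in males. Without single libraries the count ran from 972 (fluoxetine female 2) to 3479 (fluoxetine female 5) in females and from 29 (fluoxetine male 3) to 435 (fluoxetine male 5) in males. In both sexes 19 genes were called in the same direction and 3 in opposite directions, the first being 0.868% of the female and 10.3% of the male calls. Across tested genes, which are not independent replicates, the effects in females and males had r = -0.0683.

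In females 142 higher (0.788%) and 210 lower genes (1.16%) kept their call in the olfactory, GC and edgeR alternatives, and in males 39 (0.216%) and 22 (0.122%). The female calls of smallest p among them follow. Polr2a, the largest subunit of RNA polymerase II, rose by 0.43 ± 0.06, Hcfc1 by 0.44 ± 0.07, Srcap by 0.46 ± 0.07, Bicra by 0.59 ± 0.09, Bcl9l by 0.50 ± 0.08, Atg2a by 0.39 ± 0.07 and Mapkbp1 by 0.29 ± 0.05. Polr2a was 2283 to 2578 normalised counts in vehicle and 2963 to 3472 in fluoxetine females, without overlap. Lower in females were Msmo1, Idi1, Selenof (-0.42 ± 0.06), a selenoprotein of the ER, Sh3gl3 (-0.49 ± 0.08), Rpf2 (-0.48 ± 0.08), Dstn (-0.31 ± 0.05) and Cab39 (-0.30 ± 0.05). Of these 14 genes 7 lost their call without the 5 libraries of high olfactory level.

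In males the zinc finger gene Zfp189 had the largest rise among the named genes. It was 174, 189, 167, 151 and 228 normalised counts in vehicle males and 498, 398, 414, 417 and 334 in fluoxetine males, and the groups were separate. Its change in males was 1.18 ± 0.19 (limma adjusted p = 0.000451) and held in every setting run. In females it was -0.13 ± 0.19, and the sexes differed by 1.31 ± 0.26 (adjusted p = 0.00529, limma), a call that was not kept in all of the olfactory, GC and edgeR alternatives. Ltn1, a ubiquitin ligase of stalled ribosomes, rose by 0.40 ± 0.06 in males, Uba6, a ubiquitin-activating enzyme, by 0.58 ± 0.11, Ythdc2, an RNA helicase, by 0.48 ± 0.09, Sntb2 by 0.69 ± 0.13, Igsf9b by 0.56 ± 0.09, the corepressor Rcor1 by 0.38 ± 0.07 and Plxnc1 by 0.35 ± 0.06. Lower were Foxf2 (-0.87 ± 0.16), a pericyte transcription factor, Cdc42ep1 (-0.84 ± 0.16), Fadd (-0.76 ± 0.15), an adaptor of death receptors, AW047730 (-0.63 ± 0.10), Spry1 (-0.52 ± 0.10), Klf11 (-0.50 ± 0.10), Lmo2 (-0.42 ± 0.09) and Tmem134 (-0.37 ± 0.07). Of the 16 genes named for males 9 lost their call with only the compared groups fitted.

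The difference of the effect between the sexes was called in 1395 genes (7.74%), 826 more positive in males (4.58%) and 569 more positive in females (3.16%), with an unadjusted p under 0.05 in 24.7% of genes. It was called in 1551 genes with the olfactory level as a covariate and in 2 with the GC and length correction. Without the 5 libraries of high olfactory level, which leaves 2 fluoxetine against 4 vehicle females, it was called in 1. Btbd17 was the 1 gene (0.00555%) whose call was kept in the olfactory, GC and edgeR alternatives, and it held in every setting run: it was 201 to 367 normalised counts in vehicle and 353 to 602 in fluoxetine females, and 367 to 491 in vehicle and 216 to 346 in fluoxetine males. The male groups were separate and the female groups overlapped by fluoxetine library 4. The changes were 0.69 ± 0.16 and -0.64 ± 0.16, a difference of -1.34 ± 0.22 (limma adjusted p = 0.00185).

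**Figure D4:**
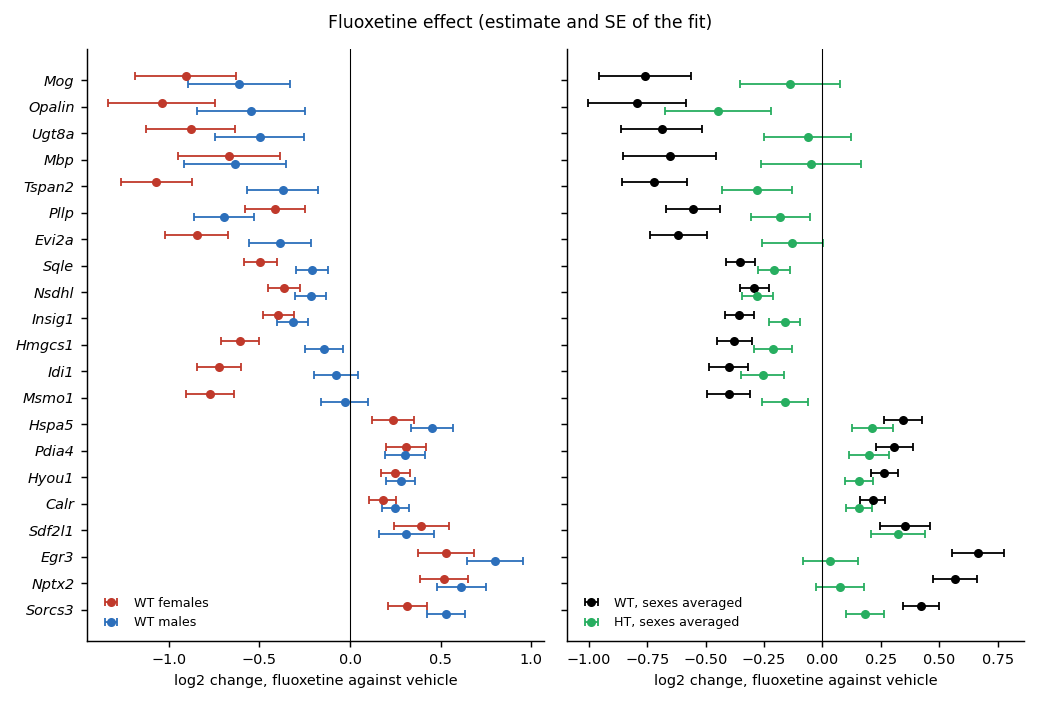
Log2 change (x axis, estimate and SE of the fit) of 21 genes, in WT females and males on the left and in WT and HT with the sexes averaged on the right. Idi1 and Msmo1 lie near 0 in WT males, and Egr3, Nptx2 and the 7 genes from Mog to Evi2a lie nearer 0 in HT than in WT. The genes were chosen for their values in WT.

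In HT mice fluoxetine was compared with vehicle in 18 other libraries, with the sexes averaged. They were 5 fluoxetine females, 5 fluoxetine males, 5 vehicle females and 3 vehicle males. The male part of the HT effect, and of its difference from WT, thus rests on 3 HT vehicle libraries, against 5 in each compared WT group. In HT limma called 0 genes, with 1307 unadjusted p-values under 0.05 (7.25%). A difference of effect between WT and HT was called in 0 genes as well (edgeR called 0 too, and limma gave 634 unadjusted p-values under 0.05, 3.52%). Of the 933 genes called in WT, 93.8% had the same sign in HT, against 67.5% of all tested genes, and the 2 comparisons share no library. The median size of their log2 change was 0.219 in WT, and their median in HT, in the WT direction, was 0.1. Those genes, and the genes and lists given below, were chosen for their changes in WT, which by itself makes smaller values in HT likely. Egr3 had a change of 0.03 ± 0.12 in HT, 0.63 ± 0.16 below that in WT (limma adjusted p = 1), and Nptx2 0.07 ± 0.10. The median of the oligodendrocyte list was -0.02 in HT, and Mog, at -0.14 ± 0.21, was 0.62 ± 0.29 above its change in WT (adjusted p = 1, limma). The median of the sterol list was -0.13 in HT against -0.23 in WT, and that of the ER list 0.09 against 0.12. In HT the value of Nsdhl was -0.28 ± 0.07 and that of Sdf2l1 0.32 ± 0.12, neither called. No difference between genotypes passed the test, which does not show that the genotypes respond alike.

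**Figure D5:**
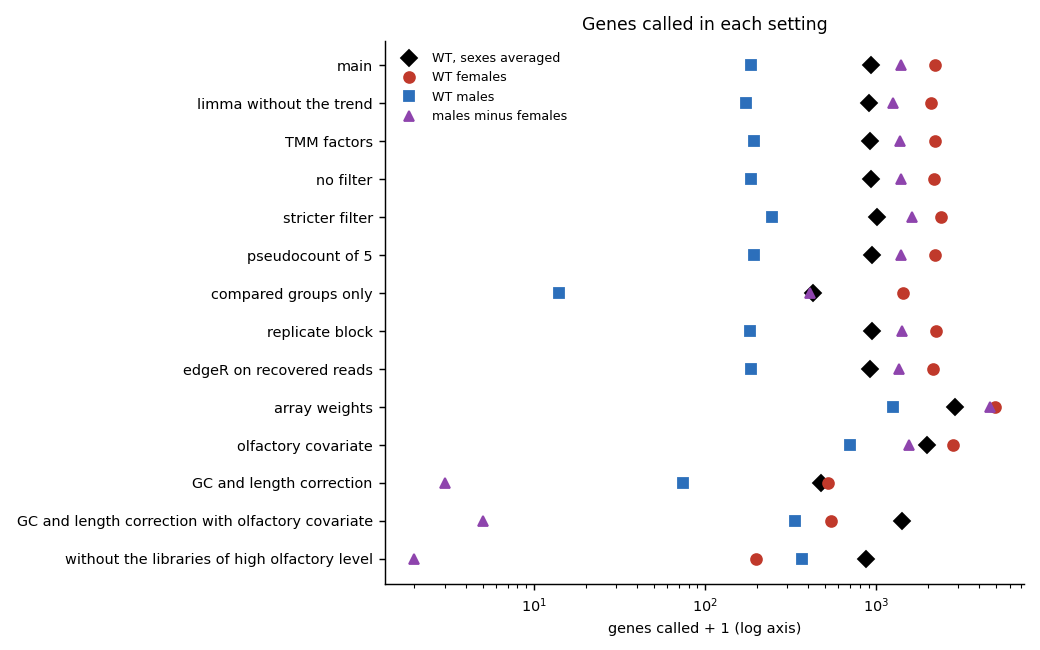
Genes called plus 1 (x axis, log scale) in the main setting and 13 alternatives (y axis) for WT with the sexes averaged, WT females, WT males and the difference males minus females. The difference falls to 2, 4 and 1 called genes in the last 3 settings.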

How the data were processed

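Prefrontal cortex mRNA was sequenced from TruSeq Stranded mRNA libraries, per the labels' protocols. The deposited values are a signal: the authors had scaled each library's gene counts by a factor of its own. The submitters' processing notes name Salmon 0.11.2, R 3.6.0, DESeq2 1.19.11 and GRCm38, with no role or order. The table has 59 columns, of which 3 could not be matched to a label and were left out. The labels list 57 samples, and 1, WT lithium female replicate 5, was not analysed here. All values (100%) were whole multiples of the smallest value in their column within 1e-06, so whole reads were recovered, 22984556 to 35969254 per library. No 2 of the 40 replicate pairs compared agreed within sampling noise: chi-square divided by its degrees of freedom was 9.97 or more. Symbols matched for 18077 of 18088 genes, and coordinates and gene properties came from the GENCODE annotation of GRCm38.

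All 56 libraries in 12 groups were fitted together by limma-trend (limma 3.58.1 in R 4.3.3) on log2(value + 1), for the 18026 genes that reached 10 in 3 or more libraries. The pseudocount understates changes of low genes. Calls were made at a Benjamini-Hochberg adjusted p below 0.05 per contrast, two-sided. edgeR 4.0.16 (quasi-likelihood, TMM) on the recovered reads called 922 genes with the sexes averaged. Other alternatives were no trend, TMM factors, 2 filters, a pseudocount of 5, compared groups only, the replicate block, array weights, the olfactory level as a covariate, a spline correction for GC content and length (4 degrees of freedom each), both, leaving out the 5 libraries of high olfactory level, and leaving out each library. On simulated counts with 200 of 18026 genes changed, limma recovered 80% of changes of 0.5 and 96% of changes of 1 (log2) with the sexes averaged, with 6 false among 182 calls. The simulated libraries did not differ in olfactory level or GC slope, so these figures do not give the error rate of the real calls.

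The comparison and its 44 gene lists were chosen with earlier results of these data known. Genes were named by a rule: from called genes with a mean of at least 50 whose call held in 3 alternatives (olfactory covariate, GC and length correction, edgeR), the 15 largest rises and falls, the 8 of smallest p in each direction for each sex and for each difference, as many as 4 called members of any list, and always Shank3 and the serotonin list. Predicted genes (Gm, Rik and -ps symbols) were not named, and some other genes that the rule gives are not reported here, though they count in the lists. The lists described are those with at least 5 members called in 1 direction, the serotonin list and 5 more chosen with their values known, and cell type lists were used for checks. Members that the rule names as values from other lists are not given. Sdf2l1, Abcg1 and the 6 motifs were chosen after the values were seen. Of the planned library scores only the olfactory level and the GC slope were tested, since scores over gene lists were not given a p.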

Additional observations from a re-analysis of the deposited data

Results flagged for a closer look

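A library stood apart from the other 4 of its group (gap over range above the 95% value of Dixon's test) in 29 of 484 tests over the named genes and library scores, and chance gives about 1 in 20. In normalised counts these were, in fluoxetine males, B3gnt9 101 (replicate 4), Cacna1g 4618 (replicate 4), Fadd 32.1 (replicate 2), Gpr37 1107 (replicate 2), Htr1f 126 (replicate 3), Htr7 171 (replicate 2), Mrpl40 396 (replicate 2), Spry1 213 (replicate 5), Tph2 82.6 (replicate 5), Tsc1 2531 (replicate 2). In fluoxetine females they were Ash1l 5326 (replicate 4), Htr7 245 (replicate 1), Opalin 413 (replicate 3), Tph2 8.86 (replicate 2), Ythdc2 1214 (replicate 5). In vehicle females they were AW047730 378 (replicate 4), Foxf2 85.9 (replicate 5), Idi1 2243 (replicate 2), Lmo2 468 (replicate 3), Mrpl3 1602 (replicate 4), P2ry13 247 (replicate 5), Tmem134 533 (replicate 4). In vehicle males they were Cacna1g 4595 (replicate 1), Lrrc7 2692 (replicate 2), Mapkbp1 2477 (replicate 4), P2ry13 259 (replicate 1), Ppp1r14a 246 (replicate 4), Tmc4 80.8 (replicate 3), Vasn 219 (replicate 2).

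The WT fluoxetine effect differed between the sexes in 33 of the 116 named genes by limma at an adjusted p below 0.05. Over all tested genes it differed in 1395 (7.74%). Part of the 116 genes was named for a call within a sex or for this difference, which by itself raises their share. The difference, males minus females on the log2 scale, was positive for Atp5f1 0.26, Cab39 0.38, Dstn 0.35, Hmgcs1 0.46, Htr2a 0.74, Idi1 0.65, Igsf9b 0.41, Ltn1 0.36, Maob 0.46, Mrps18c 0.46, Msmo1 0.74, Rpf2 0.40, Selenof 0.37, Sntb2 0.72, Uba6 0.51, Ythdc2 0.48, Zfp189 1.31. It was negative for AW047730 -0.45, Atg2a -0.36, Bcl9l -0.59, Bicra -0.56, Btbd17 -1.34, Cacna1i -0.37, Cdc42ep1 -1.05, Fadd -0.76, Foxf2 -0.78, Hcfc1 -0.37, Mapkbp1 -0.20, Mtor -0.39, Polr2a -0.44, Spry1 -0.64, Srcap -0.42, Tsc2 -0.26. Of these, Btbd17 alone kept the call with the olfactory covariate, the GC and length correction and edgeR.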

How the results depend on the processing

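With the sexes averaged, 933 genes were called; the count was 427 with only the compared groups fitted, 2877 with array weights, 1984 after adding the olfactory covariate, 476 after the GC and length correction and 1409 with both, and 462 to 1295 without single libraries. In females (2189) the same settings gave 1439, 4959 and, with GC and length, 518, with both 542, and 197 without the 5 libraries of high olfactory level (972 to 3479 without single libraries). In males (185) they gave 13, 1242, 698 with the olfactory covariate, 73, 334 and 365 (29 to 435). The difference between the sexes (1395) gave 410, 4624, 1551 with the olfactory covariate, 2, 4 and 1 (481 to 2810). When fewer groups are fitted, the number of residual degrees of freedom falls and the spread is estimated from the compared libraries alone. Why the counts moved was not tested. Called members of the lists moved as follows. Serotonin genes called lower were 1 without the trend, in edgeR, with GC and length, with both and without the 5 libraries, and 0 with compared groups only (0 to 2 without single libraries); 1 was higher without the 5 libraries (0 to 1), where the median was 0.085 (-0.05 to 0.02 without single libraries). ER genes called higher were 8 with array weights and 8 without the 5 libraries, where the median was 0.21 (4 to 9, medians 0.11 to 0.17). The higher sterol gene was called in 0 cases with GC and length, with both and without the 5 libraries (1 to 1 without single libraries), and 8 were lower without the 5 (8 to 15). Lower oxidative phosphorylation genes were 1 with compared groups, 13 with array weights and 0 with GC and length, both, or without the 5 (1 to 8), and lower mitochondrial ribosomal genes 2 with compared groups, 16 with array weights, 11 with the olfactory covariate and 1 without the 5 (2 to 8). Postsynaptic genes called higher were 0 with compared groups, 12 with array weights, 11 with the covariate and 0 with GC and length (1 to 10). Channel genes called higher were 3, 11, 11 and 0 in the same order, and 1 with both (3 to 8), and lower ones 0 with compared groups, with GC and length and without the 5, and 2 with both (0 to 1). Chromatin genes called higher were 15 with array weights, 2 with GC and length and 4 without the 5 (5 to 10); 1 was lower with array weights, the covariate and both (0 to 1), and the median was 0.017 with both (0.07 to 0.11). Oligodendrocyte markers called lower were 4 with compared groups and 1 without the 5 (3 to 13), and 1 was higher with array weights and with the covariate (0 to 0). The female difference in olfactory level was -0.823 without the 5 libraries, a direction that leaving them out by this very level sets (0.557 to 1.64 without single libraries). That in GC slope, whose adjusted p had not passed 0.05, was 0.147 without them (0.136 to 0.184), and 2 against 4 libraries cannot reach 0.05. Some genes near 0 changed sign. Tph2 was -0.10 with array weights (-0.11 to 0.19), Shank3 -0.082 with GC and length and -0.044 with both (-0.051 to 0.065), and Slc18a2 0.023 with a pseudocount of 5, 0.30 in edgeR and 0.31 with array weights (-0.22 to 0.24). Without the 5 libraries Htr2a was 0.22 (-0.13 to -0.01) and Htr5a 0.12 (-0.096 to 0.0048), and Htr3a ran from -0.10 to 0.0031 without single libraries. In the 35 other lists 148 of 910 counts moved by over 1.5 times.

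The replicate block gave 945 called genes with the sexes averaged, 2240 in females, 181 in males and 1407 for the difference between the sexes, and 1 lower serotonin gene in place of 2. Nothing in the labels says that replicate numbers pair the libraries. Of 10 same-numbered pairs 1 correlated above 0.1 (-0.185 to 0.452), and 1 fluoxetine library correlated best with its own number. Other differences between libraries, such as the olfactory level, enter these correlations. They cannot show whether libraries of a number shared a litter, a dam or their processing.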
